A study of Homo sapiens with 8 samples.

Results

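Integrin subunit genes encode the alpha and beta chains of the receptors that attach cells to the extracellular matrix, and 10 of them were followed here in HepG2 cells, a human hepatocarcinoma line, after ectopic expression of the epithelial transcription factor GRHL2. The members were the alpha subunit genes ITGA1, ITGA2, ITGA3, ITGA5, ITGA6 and ITGAV and the beta subunit genes ITGB1, ITGB4, ITGB5 and ITGB8. They were taken by gene symbol, and all 10 were found among the 17561 genes of the deposited table. The list was chosen by the pGRHL2 and pcDNA3 values of ITGA3 and ITGB8, both higher with GRHL2 in earlier results on these same libraries, and was filled up with the other integrin subunit genes named here. The differences between plasmids given for the members are therefore descriptions. Where a fit over all genes called a member, nothing is read from that call.

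Cells were transfected with pGRHL2, which encodes GRHL2 fused to a flag tag, or with the control vector pcDNA3, and RNA was harvested 48 h later. Both groups were grown on gelatin in William's E medium with serum, insulin and dexamethasone, and 4 libraries, with replicate numbers 1 to 4, were made per plasmid. As the study describes it, the cDNA was driven by an EEF1A1 promoter in a bicistronic construct that also encoded a green fluorescent protein, which means that GRHL2 was not the sole difference between the plasmids. No sorting of the transfected cells is described, and all libraries came from this single cell line. The deposited values are on a log2 scale and corrected for transcript length by the authors. Same-numbered libraries are treated as pairs, because the average of a pGRHL2 library and its same-numbered pcDNA3 library was the same number in all 4 pairs, in 17561 of 17561 genes. Groups that do not overlap and a difference of the same sign in 4 of 4 pairs are thus the same event in this table. Each log2 fold change below is the mean of the 4 pair differences (pGRHL2 minus pcDNA3), given with their SD.

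Each integrin is a heterodimer of an alpha and a beta chain, and the chain combination sets which ligand is bound. ITGB1 pairs with all 6 alpha chains listed here. The ITGA1 and ITGA2 products form collagen receptors with it, those of ITGA3 and ITGA6 form laminin receptors, and that of ITGA5 forms the classical fibronectin receptor. The ITGA6 product also joins that of ITGB4 in the hemidesmosomes that anchor epithelia to their basement membrane. The ITGAV product pairs with those of ITGB5 and ITGB8 as well, and in the latter combination it binds the latent form of TGF-beta. In the liver, laminin-binding integrins are known as features of bile ducts rather than of hepatocytes.

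Grainyhead-family factors such as GRHL2 are known to bind the palindrome AACCGGTT and variants of it. The RefSeq promoter table (GRCh38.p14) held 13 windows of 250 bases before an annotated start for 8 of the 10 members, ITGA3 and ITGB4 having no entry. AACNNGTT, a palindrome that reads the same on both strands and includes AACCGGTT, was found in 0 of these 13 windows. It was found in 3.0% of 35116 promoter windows of this length, and AACCGGTT in 0.117% of them. A count of 0 in 13 windows lies near these shares, and nothing is read from it. The sequences below belong to ITGA5 and ITGB8, the members with a window that were higher in 4 of 4 pairs. They show what was searched, only in part for ITGB8, and nothing is in capitals since no match was present. For ITGB8 only the 52 bases that precede the start of the gene in GENCODE release 44 are printed, 5′ to 3′ on the strand of the gene.
ITGA5, chr12:54419267-54419516, minus strand: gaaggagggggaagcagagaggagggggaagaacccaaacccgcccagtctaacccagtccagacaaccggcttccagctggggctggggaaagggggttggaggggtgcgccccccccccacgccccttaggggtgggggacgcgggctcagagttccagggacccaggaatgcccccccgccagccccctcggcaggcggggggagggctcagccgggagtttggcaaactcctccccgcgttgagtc
ITGB8, chr7:20330650-20330701, plus strand: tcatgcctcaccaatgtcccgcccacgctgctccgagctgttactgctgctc
Both stretches are rich in G and C, with 70.0% for ITGA5 and 61.5% for the 52 printed bases of ITGB8. The whole ITGB8 window of 250 bases had 71.2%, and the median over all windows of 250 bases was 58.0%. The absence of these letters within such a window says nothing about sites elsewhere in the gene.

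The transfected gene was far higher in the pGRHL2 libraries, with pair differences of GRHL2 from 8.97 to 10.26 (mean of 9.48, limma adjusted p of 4.84e-08). All 7 hepatocyte markers examined were in the table. Limma called 0 of them, where 1.69% of all genes were called higher and 0.501% lower. An unadjusted p under 0.05 was found for 0 of them and for 16.0% of all genes. With only 7 genes, these counts of 0 lie near the shares of all genes. Without replicate 2, the albumin gene ALB was called lower, with a log2 fold change of -0.15 in place of -0.03 (limma adjusted p of 0.029). Of 18 markers of leukocytes and platelets, endothelium, and fibroblasts, 8 were listed, with mean values between 1.91 and 8.14. The white blood cell gene PTPRC was not among the rows, and ITGB2, the beta chain of leukocyte integrins, had a mean value of 5.02. The depth behind each value is unknown, since the table holds no read counts, and no counting error is given.

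The levels of the 10 genes spanned most of the range of the table. ITGB1, on chromosome 10 from 32887273 to 33005792 (hg38, minus strand), was the highest, with a mean value of 12.43 over the 8 libraries and only 209 genes above it. ITGB5, whose product forms a vitronectin receptor with that of ITGAV, followed at 11.73. ITGA6 had a mean value of 10.85. ITGAV and ITGA2 came next at 10.16 and 10.04, with ranges over the libraries that overlapped, so that their order is not resolved. ITGB4, the hemidesmosomal beta chain, stood at 9.07. ITGA3 and ITGA1 had means of 7.82 and 7.43 and also overlapped, since ITGA3 lay below ITGA1 in 4 of 4 pcDNA3 libraries and above it in 4 of 4 pGRHL2 libraries. ITGA5 was much lower at 4.59. ITGB8 closed the list at 0.81, at percentile 8.74 of all genes. All other neighbours in this order had ranges that did not overlap. These levels are log2 values per transcript length, and the length used for each gene was an average over its annotated transcripts.

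**Figure D1:**
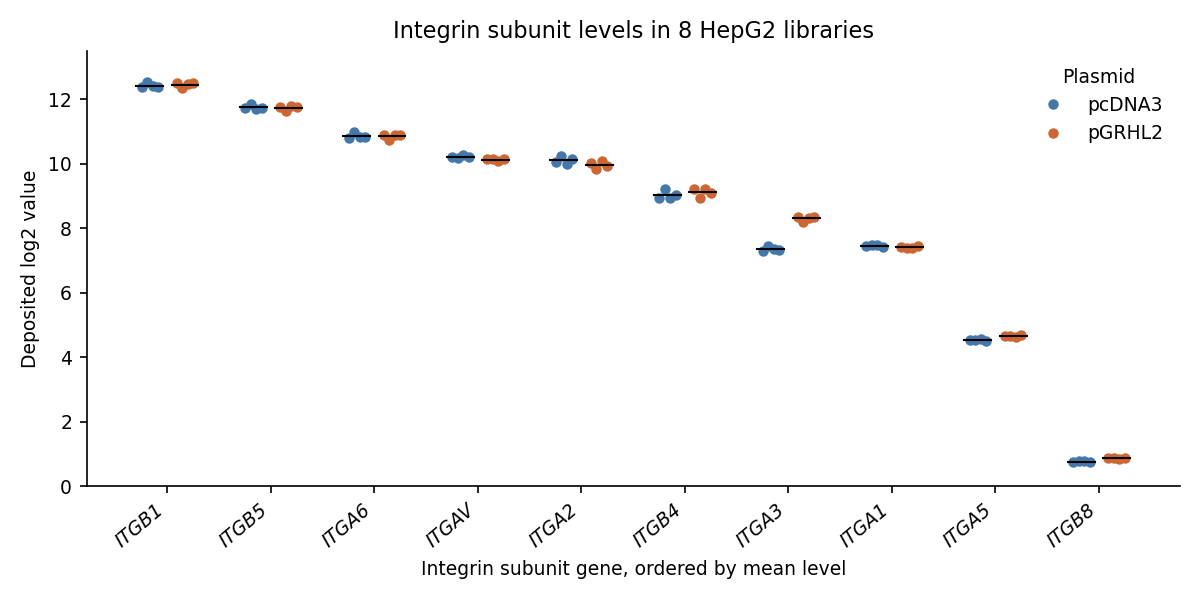
Deposited log2 values (per transcript length) of the 10 integrin subunit genes in the 8 libraries, with points for libraries, colours for plasmids and black lines for group means (n = 4 each). ITGA3 is the gene whose plasmid groups stand visibly apart, near 7.3 in pcDNA3 and 8.3 in pGRHL2, while the level order otherwise runs from 12.43 for ITGB1 to 0.81 for ITGB8.

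ITGA3 had by far the widest gap between plasmids. The gene lies on chromosome 17 from 50055968 to 50090481 (plus strand), and 0.0% of its exon bases are shared with another annotated gene. Its log2 values were 8.35, 8.20, 8.31 and 8.34 in pGRHL2 libraries 1 to 4. In pcDNA3 libraries 1 to 4 they were 7.30, 7.45, 7.34 and 7.31. The lowest pGRHL2 library thus exceeded the highest pcDNA3 library by more than the whole range within either group. The pair differences were 1.05, 0.75, 0.97 and 1.04, giving a log2 fold change of 0.95 ± 0.14 (SD, n = 4 pairs), that is a 1.94-fold higher value. Only 4 of the 17561 genes had a larger log2 fold change, GRHL2 among them, and 13 genes in all were more than 1.5-fold higher. Leaving out one pair at a time moved the ITGA3 log2 fold change between 0.92 and 1.02.

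ITGB8 also had groups that did not overlap, but at the bottom of the range. The gene lies on chromosome 7 from 20330702 to 20415754 (plus strand). Its log2 values were 0.88, 0.86, 0.85 and 0.87 in pGRHL2 libraries 1 to 4. In pcDNA3 libraries 1 to 4 they were 0.74, 0.77, 0.77 and 0.75. The log2 fold change was 0.11 ± 0.03 (SD, n = 4 pairs), a 1.08-fold higher value. The authors' transformation shrinks the differences of weakly read genes, and the 3064 genes with a mean value under 2 had a median SD of their pair differences of only 0.026, against 0.117 for the 10858 genes with a mean value of at least 5. The size of the ITGB8 difference cannot therefore be set beside that of ITGA3. Among those 3064 genes, 52 had a larger log2 fold change than ITGB8.

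The limma fit with the replicate number as a block, adjusted over all genes, called 2 of the 10 members higher, ITGA3 and ITGB8, where 1.69% of all genes were called higher. It called 0 members lower, where 0.501% of all genes were called lower. Because this contrast drew attention to the family, nothing is read from that count. The median log2 fold change of the members was 0.0073, close to the 0.0017 of all genes. The ITGB8 call was lost without replicate 1. Among the 3064 genes with a mean value under 2, where ITGB8 lies, 88 (2.87%) were called higher and 1 lower. Among the 10858 genes with a mean value of at least 5, where ITGA3 lies, 73 (0.672%) were called higher and 81 lower.

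Apart from these, ITGA5 and ITGAV had groups that did not overlap, in opposite directions. In total 3 of the 10 members lay higher in 4 of 4 pairs, against 13.4% of all genes, and 1 lay lower in 4 of 4 pairs, against 10.5%. The 3 higher members include ITGA3 and ITGB8, by whose values the list was chosen, so nothing is read from their count. ITGA5, on chromosome 12 from 54395261 to 54419266, had log2 values of 4.64, 4.66, 4.61 and 4.68 in pGRHL2 libraries 1 to 4. Its values in pcDNA3 libraries 1 to 4 were 4.54, 4.52, 4.57 and 4.50. The ITGA5 log2 fold change was 0.12 ± 0.06 (SD, n = 4 pairs), and the gap between the closest libraries of the 2 groups was smaller than the range within either group. ITGAV had log2 values of 10.13, 10.15, 10.07 and 10.13 in pGRHL2 libraries 1 to 4, and 10.19, 10.17, 10.25 and 10.19 in pcDNA3 libraries 1 to 4. Its log2 fold change was -0.08 ± 0.07, with the closest libraries of the groups almost touching. Neither gene was called.

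The remaining 6 members had overlapping groups. ITGB1, the common partner of the alpha chains, had log2 values from 12.33 to 12.50 in pGRHL2 and from 12.37 to 12.53 in pcDNA3, with a log2 fold change of 0.02 ± 0.15. ITGB5 had values from 11.63 to 11.77 in pGRHL2 and from 11.69 to 11.83 in pcDNA3, with a log2 fold change of -0.02 ± 0.13. The plasmids were thus not separated for the beta chains with the highest levels. The laminin receptor gene ITGA6 had a log2 fold change of -0.01 ± 0.16, and ITGB4, its hemidesmosomal partner, had 0.09 ± 0.26. For the collagen receptor genes, the log2 fold change was -0.06 ± 0.06 for ITGA1 and -0.14 ± 0.20 for ITGA2. In each of these 6 genes the SD of the pair differences exceeded the size of their mean.

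Pair 2 differed from the other pairs in many of these genes. ITGA6 had log2 values of 10.90, 10.73, 10.87 and 10.88 in pGRHL2 libraries 1 to 4, and of 10.80, 10.97, 10.82 and 10.82 in pcDNA3 libraries 1 to 4. Library 2 was thus the lowest of its group in pGRHL2 and the highest in pcDNA3. Since the pair means are identical, the 1 follows from the other, and which library stood apart cannot be told. The same was seen for ITGB1, ITGB4 and ITGB5, whose differences in pair 2 were -0.20, -0.27 and -0.20, while those in the other 3 pairs were all above 0. Pair 2 gave the lowest difference in 7 of the 10 members, ITGA3 included, against 23.1% of all genes, a count made after the values had been seen. The median difference over the members was -0.16 in pair 2 and between 0.06 and 0.10 in the other pairs, whereas the median over all genes was 0.0059 in pair 2. The hepatocyte markers moved the other way in this pair, with a median difference of 0.31 in pair 2 and between -0.12 and -0.03 in the other pairs. Their part in the integrin values was not tested. Without pair 2, the mean difference was 0.07 for ITGA6, 0.10 for ITGB1, 0.21 for ITGB4, 0.04 for ITGB5 and 1.02 for ITGA3.

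**Figure D2:**
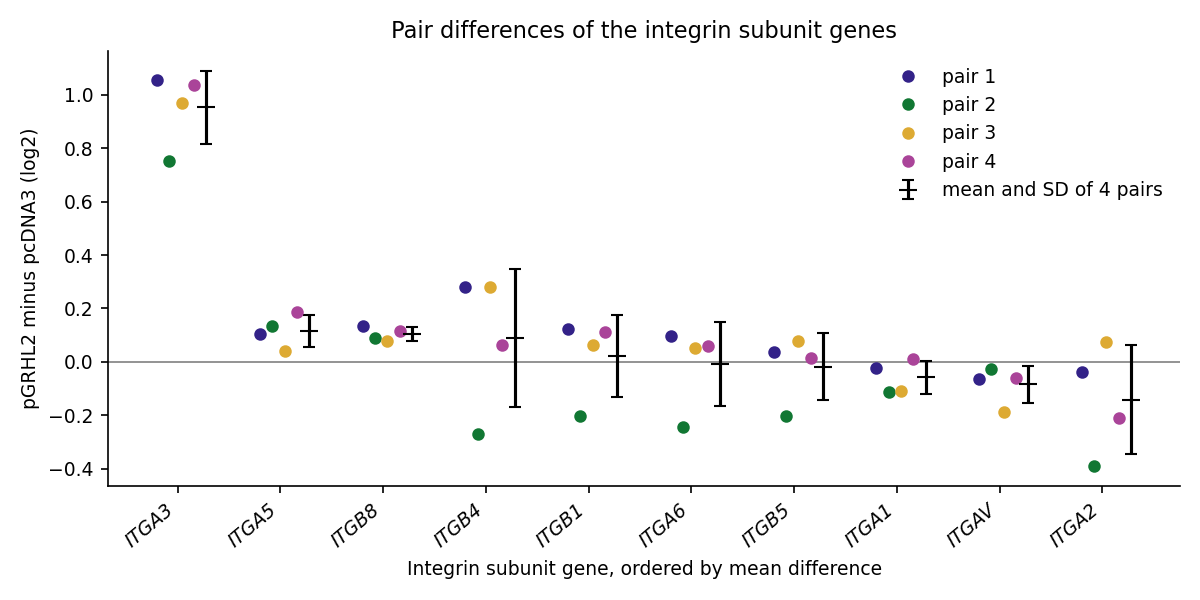
Differences between same-numbered pGRHL2 and pcDNA3 libraries (log2) for the 10 integrin subunit genes, with coloured points for the 4 pairs and black bars for their mean and SD. ITGA3 stays between 0.75 and 1.05 in all pairs, and pair 2 is the lowest point in 7 of the 10 genes.

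Because all 6 alpha chains can pair with the ITGB1 product, the values of the 6 alpha genes were also expressed as shares of their sum on the linear scale. ITGA3 made up 3.62% ± 0.06 (SD, n = 4) of this sum in pcDNA3 and 7.06% ± 0.12 in pGRHL2, with shares of 3.55% to 3.68% and 6.95% to 7.20% in the single libraries. ITGA6 held the largest share in both groups, 41.1% ± 0.8 in pcDNA3 and 41.2% ± 0.8 in pGRHL2. ITGA2 went from 24.6% ± 1.1 to 22.5% ± 1.0 and ITGAV from 26.2% ± 1.4 to 24.9% ± 1.3, with overlapping libraries. The log2 of the sum itself was 12.14 ± 0.05 in pcDNA3 and 12.12 ± 0.05 in pGRHL2. Its pair differences had a mean of -0.01 ± 0.10 (SD, n = 4 pairs), so that their SD exceeded the size of their mean. Replicate means had been removed from the values, so that the SDs within a plasmid leave out any shift shared by a pair. These shares describe transcript values and not receptors at the cell surface, which were not measured here.

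**Figure D3:**
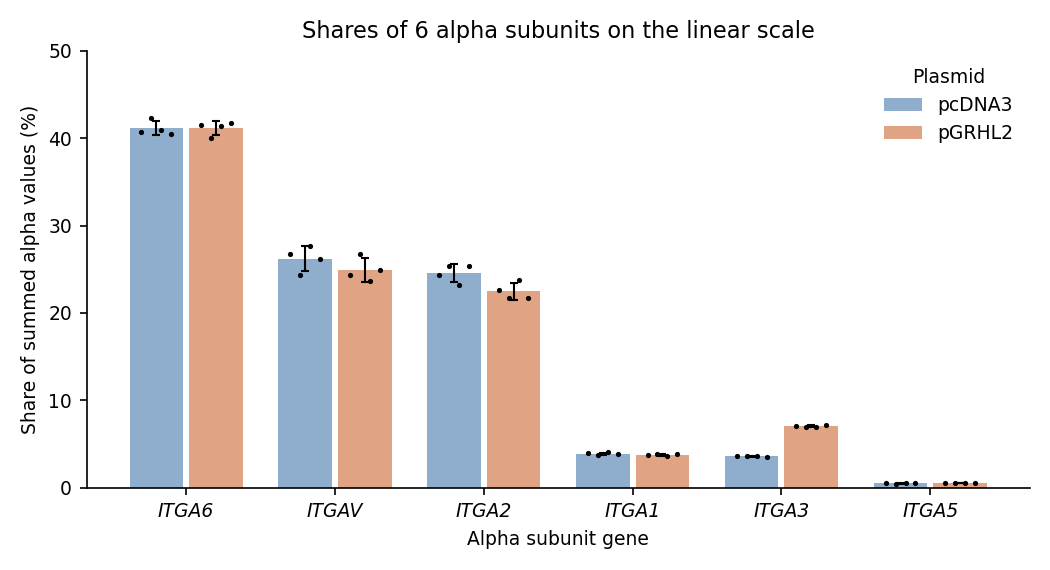
Share of each alpha subunit gene in the sum of the 6 alpha genes (percent, linear scale) by plasmid, as bars for means, error bars for SD and dots for libraries (n = 4). ITGA3 moves from 3.62% to 7.06% while ITGA6 stays near 41% and remains the largest.

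The genes whose 4 pair differences were most like those of ITGA3 were sought among the other 10857 genes with a mean value of at least 5, by root mean square distance. The 5 closest were GPNMB (distance of 0.20, log2 fold change of 1.05 ± 0.15), HSPB8 (0.22, log2 fold change of 0.78 ± 0.27), EFHD1 (0.25, log2 fold change of 0.89 ± 0.14), SLC44A2 (0.28, log2 fold change of 0.73 ± 0.08) and CYB561 (0.34, log2 fold change of 0.67 ± 0.13). GPNMB encodes a membrane glycoprotein, HSPB8 a small heat shock protein, EFHD1 a calcium-binding mitochondrial protein, SLC44A2 a choline transporter-like protein and CYB561 a cytochrome b561. This distance depends largely on the size of the differences. The absence of the other integrin genes, whose log2 fold changes were 0.12 or less, thus followed from the measure. In HSPB8, as in ITGA3, pair 2 gave the lowest difference, whereas in GPNMB, EFHD1, SLC44A2 and CYB561 it did not.

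The other integrin subunits were compared next, since they complete the family. Of 16 such genes, 12 were in the table. Limma called 0 of them, where 1.69% of all genes were called higher and 0.501% lower. With only 12 genes, a count of 0 lies near these shares. An unadjusted p under 0.05 was found for 2 of them, and for 16.0% of all genes. Their median log2 fold change was 0.02 and their median level 2.88, well below the 9.56 of the members. ITGA7, which encodes a laminin receptor chain of muscle, had a log2 fold change of 0.12 ± 0.12 (limma adjusted p of 0.246). ITGA11, a collagen receptor gene, had 0.04 ± 0.01 at a mean value of -0.69 (limma adjusted p of 0.065). The 3 highest were ITGAE, ITGAM and ITGB2, known from leukocytes, with log2 fold changes of -0.10 ± 0.15, 0.11 ± 0.17 and 0.02 ± 0.12. ITGA4, ITGA8, ITGAD and ITGB6 were not among the rows.

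A further list took in proteins that bind integrin tails and adaptors and regulators that act with them, and 29 of 30 such genes were in the table. Limma called 0 of them, where 1.69% of all genes were called higher and 0.501% lower. With 29 genes, a count of 0 lies near these shares. An unadjusted p under 0.05 was found for 4 of them, against 16.0% of all genes. The median log2 fold change was -0.0004. CRKL, an adaptor of focal adhesion signalling, had pair differences of -0.18, -0.18, -0.14 and -0.21, with a log2 fold change of -0.18 ± 0.03 (limma adjusted p of 0.135). PXN, which encodes the focal adhesion scaffold paxillin, had a log2 fold change of -0.19 ± 0.09 (limma adjusted p of 0.148). Both were lower in 4 of 4 pairs without passing the test. BCAR1, PTK2 and TLN1, encoding an adhesion docking protein, focal adhesion kinase and talin, were the highest of this list and had log2 fold changes of -0.10 ± 0.13, 0.04 ± 0.17 and -0.04 ± 0.19. ILK, encoding the integrin-linked kinase, was listed at only 2.10. Named after its value was seen, it shares 78.5% of its exon bases with other annotated genes, TAF10 among them, so that its value is uncertain under the authors' unstranded counting.

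Ligands were represented by 24 of 27 genes for laminins, collagens, other matrix proteins and latent TGF-beta. Limma called 0 of them, where 1.69% of all genes were called higher and 0.501% lower. With 24 genes, a count of 0 lies near these shares. An unadjusted p under 0.05 was found for 5 of them, against 16.0% of all genes. The median log2 fold change was 0.0097. The highest were the fibronectin gene FN1 at a mean value of 15.1, SPP1, encoding osteopontin, at 13.7, and the laminin gamma chain gene LAMC1 at 11.5. Their log2 fold changes were 0.02 ± 0.15, 0.06 ± 0.14 and -0.06 ± 0.14. COL1A1, a fibrillar collagen gene, had a log2 fold change of 0.20 ± 0.10 and was higher in 4 of 4 pairs (limma adjusted p of 0.084). LAMA2 had a log2 fold change of 0.07 ± 0.06 (limma adjusted p of 0.206). Values of 2 further genes were chosen after they had been seen. LAMB3, a chain of the laminin bound by the ITGA3 product, differed by 0.16, -0.16, 0.76 and 0.50 in pairs 1 to 4 (limma adjusted p of 0.258). TGFB1, which encodes a ligand of the ITGAV and ITGB8 pair, differed by -0.01, -0.27, -0.28 and 0.45 (limma adjusted p of 0.949).

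The last list held tetraspanins, hemidesmosomal proteins and other membrane proteins known to associate with integrins, and all 14 genes were in the table. Limma called 0 of them, where 1.69% of all genes were called higher and 0.501% lower. With 14 genes, a count of 0 lies near these shares. An unadjusted p under 0.05 was found for 2 of them, against 16.0% of all genes. The median log2 fold change was 0.04. CAV1, encoding caveolin, had a log2 fold change of 0.20 ± 0.14 and was higher in 4 of 4 pairs (limma adjusted p of 0.087). The tetraspanin gene CD63 had a log2 fold change of 0.19 ± 0.15 (limma adjusted p of 0.180). BSG and SLC3A2, encoding the membrane proteins basigin and the CD98 heavy chain, were among the highest of the list, with log2 fold changes of 0.03 ± 0.03 and -0.07 ± 0.07. CD151, the tetraspanin known to bind the ITGA3 product, was looked up afterwards. Its pair differences were 0.22, 0.26, -0.06 and 0.14 (limma adjusted p of 0.356).

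**Figure D4:**
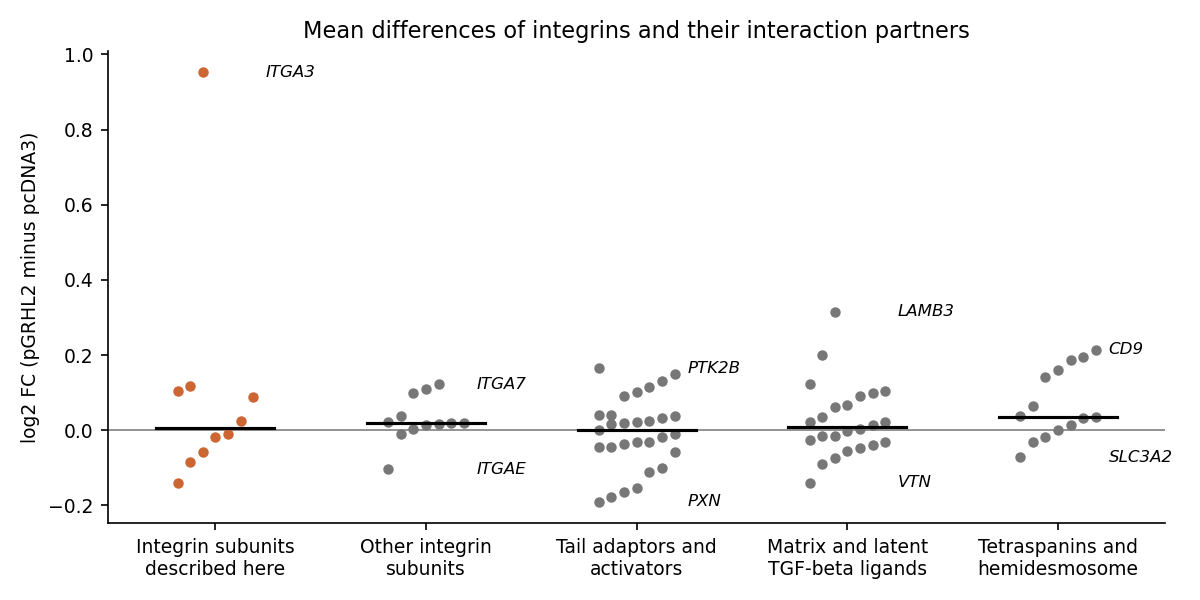
Mean log2 fold change (pGRHL2 minus pcDNA3) of single genes in the 10 integrin subunits and in the other 4 lists, with points for genes, black lines for list medians, and labels for ITGA3 and for the highest and lowest gene of each other list. Genes of the other lists lie between -0.19 for PXN and 0.32 for LAMB3, and ITGA3 at 0.95 stands above all of them.

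Some rows of the table lie close to the members in sequence or position. ITGB1P1, a pseudogene of ITGB1, was listed at a mean value of 9.99, with a log2 fold change of 0.09 ± 0.14. Whether reads that fit both ITGB1 and its copy were dropped or assigned to either row was not tested. ITGA1 shares 13.2% of its exon bases with other genes, including PELO, which lies within it and had a log2 fold change of -0.0068 ± 0.18. For ITGA6 and ITGB1 the shared part was 5.26% and 2.75%, and it was below 1.1% for the other members.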

How the data were processed

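RNA-seq values of 8 HepG2 libraries were read from 1 deposited table. Reads were mapped by the authors to hg38 with Hisat2, then counted over exons without strand in HTSeq (minimum alignment quality of 10), after which weakly read genes were dropped and the DESeq2 rlog was taken and corrected for mean transcript length. The submitters' processing notes give HISAT2 2.2.1, HTSeq 0.9.1 and DESeq2 1.40.2. Although the table is named as FPKM, the deposited values are log2: 3.71% were below 0, and over the 1754 least variable genes the value fell with log2 transcript length (slope of -0.78). The mean of each same-numbered pair was identical, as after a removal of replicate means, a step not given in the sources used here. This fixes the correlation of same-numbered libraries, so that a check of the pairing by correlation is void. There were 0 columns of other samples, and 1 stray character was taken off a value.

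Plasmid and number came from the sample titles, and the methods describe 4 independent biological replicates. All genes were fitted with limma 3.58.1 (R 4.3.3; eBayes with trend, replicate number as block, Benjamini-Hochberg adjustment, threshold 0.05), which was tested on simulated data. The members and lists were chosen with earlier results of these data known. Genes named were the members, GRHL2, in each other list the genes called (or, where none was, the 2 with the smallest p) and the 3 highest, and the 5 most like ITGA3. Gene positions and exon overlaps came from GENCODE release 44. Protein features planned for the members were not analysed here, and a planned marker gene is not reported here. The alternatives tried were leaving out the block, arrayWeights, robust eBayes, a mean value of at least 5, median centring, a pseudocount of 1 on the linear scale, removal of the trend on level (natural spline with 5 degrees of freedom), an adjusted p under 0.01, and leaving out each pair.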

Additional observations from a re-analysis of the deposited data

Results flagged for a closer look

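Because the 2 libraries of a pair mirror each other around a fixed mean, a library that stands apart from its group appears as a pair difference apart from the other 3. Of 40 genes examined, 5 had a gap to the nearest pair that, as a share of the whole range, exceeded Dixon's 95% critical value, where chance gives about 1 in 20. Among the members this was ITGA6, with a difference of -0.2437 in pair 2, while the other pairs had a median of 0.06. ITGB1 came close, with a ratio of 0.81 in the same pair. The other 4 were ALB (0.3330 in pair 2, against -0.14), TTR (0.5481 in pair 2, against -0.03), ACTA2 (-0.0237 in pair 4, against 0.09) and ITGA2B (-0.0490 in pair 3, against 0.04).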

How the results depend on the processing

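Without the replicate block, limma called 1821 genes higher and 1427 lower, in place of 297 and 88, and 3 members in place of 2, ITGA5 being added. Since the replicate means had been removed from the values, this fit counts 6 residual degrees of freedom where the pairing leaves 3. It called 2 other integrin subunits higher, 1 gene of the tail adaptor list higher and 4 lower, and 4 ligands higher. It also called 2 genes of the tetraspanin list higher. The blocked fit called 0 in each of these lists. With arrayWeights, 503 genes were higher and 221 lower, and 1 other integrin subunit (ITGA11) and 1 ligand (COL1A1) were called higher. With a mean value of at least 5, which leaves out ITGA5 and ITGB8, 63 genes were higher and 81 lower, and 1 member was higher. Removing the trend on level left 191 genes higher. At an adjusted p under 0.01, 77 genes were higher, 10 lower and 1 member higher, ITGA3. Leaving out 1 pair at a time gave 79 to 156 genes higher, 8 to 68 lower, and 1 to 2 members higher, with the single member found without replicate 1. These fits have fewer pairs, and the cause of the other changes was not tested. The log2 fold change of ITGB8 was 0.07 with the pseudocount, which compresses low values by construction. Among the members, 5 of 108 values changed sign, in ITGA6, ITGB1 and ITGB5, and 0 of these were called. Of 341 values of the named list genes, 307 kept direction and side of the threshold and 23, in 11 genes, changed sign, with 0 of these called. The rest became called. With the trend on level removed, the log2 fold change was -0.086 for AFP, -0.027 for FN1, -0.017 for PECAM1 and -0.0089 for VWF. With arrayWeights it was 0.030 for PDGFRB and -0.00041 for PTK2, and with median centring it was -0.0040 for PECAM1. Leaving out 1 pair at a time gave -0.082 to 0.063 for AFP, -0.15 to 0.025 for ALB (called lower without replicate 2), -0.047 to 0.072 for FN1, -0.030 to 0.052 for ITGB2, -0.10 to 0.0071 for LAMC1, -0.054 to 0.062 for PDGFRB, -0.041 to 0.026 for PECAM1, -0.030 to 0.10 for PTK2, -0.093 to 0.049 for TLN1, -0.00029 to 0.19 for TTR and -0.00072 to 0.018 for VWF. Depth is unknown for all values, so that the difference in ITGB8 cannot be related to reads.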
